A study of Mus musculus with 10 samples.

Results

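Described here were 10 imprinted genes, chosen by name: Ndn, Magel2, Snrpn, Peg3, Meg3, Rian, Mirg, Dlk1, Cdkn1c and Nnat. They are 10 of 55367 genes listed in the count and FPKM tables. All 10 were found by symbol. They were read in 10 single inspiratory neurons of the preBötzinger complex (preBötC), the brainstem site that generates inspiratory rhythm, recorded by whole-cell patch clamp in slices from neonatal mice of postnatal day 0 to 3 and then aspirated for RNA sequencing (Patch-Seq), with 1 library per neuron. Dbx1-derived neurons, 4 in all, came from Dbx1;Ai148 pups. In these, a Cre driven by Dbx1, a transcription factor of hindbrain interneuron progenitors, turned on the calcium indicator GCaMP6f in the descendants of cells that had expressed it, on a C57Bl/6J or mixed C57Bl/6J and CD-1 background. The other 6 neurons came from CD-1 mice, which the labels call WT, and carried no lineage mark, so that Dbx1-derived cells may be among them. By electrophysiology, 4 neurons were Type-1 (putatively rhythm-generating; 3 Dbx1-derived and 1 CD-1), 1 was Type-2 (putatively pattern-generating; Dbx1-derived) and 5 were Unknown (all CD-1). Day 0 gave samples 1, 3, 5 and 8, day 1 gave sample 10, day 2 gave samples 2 and 9, and day 3 gave samples 4, 6 and 7.

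A library held between 21392146 and 36629393 fragments assigned to genes. FPKM are fragments per kilobase of gene length and per 1000000 assigned fragments. The labels name no animal, so each neuron is 1 observation and no test between groups was run. An SD below is the spread between neurons. Sample 4 (Type-1, CD-1, day 3) stood apart. The mean log2(FPKM + 1) of 8 neuronal markers was 2.10 there and 4.51 to 7.58 in the other 9 neurons, and that of 8 microglial markers was 9.89 against at most 7.14, with each of the 8 at its highest level in sample 4. Sample 9 carried cholinergic motoneuron genes (list mean 5.99, at most 0.95 elsewhere). The means of 10 astrocyte markers were highest in samples 2, 3 and 8, at 4.56, 5.77 and 4.92. Samples 1, 2, 3, 4 and 9 had 5065, 5623, 5055, 6795 and 6632 genes at 1 FPKM or more, and the other 5 had 8720 to 9307. Samples 1 to 4 form a set in a further respect. The authors reported the lowest cDNA concentrations for this set, with lower and more variable expression for a portion of its detected genes. The parts of the other cell types named above, of gene detection and of cDNA concentration in the results below were not tested. Results are given with and without sample 4.

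An imprinted gene is transcribed mainly or only from the copy inherited from 1 parent. Ndn, Magel2 and Snrpn lie in the mouse counterpart of the human chromosome region whose paternal copy is lost in Prader-Willi syndrome, a disorder that includes disturbed breathing, and mice without necdin can die soon after birth with irregular breathing that arises in the preBötC. Peg3 and Nnat are likewise paternally expressed. Meg3, Rian and Mirg are noncoding RNAs transcribed in 1 direction from the maternal copy of the Dlk1-Dio3 region, whose paternal copy expresses Dlk1, and Cdkn1c is maternally expressed. Fragment counts per gene do not tell the parental copies apart.

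All coordinates are of GRCm38. Ndn is a gene of 1 exon at chr7:62346569-62350262 on the plus strand, and Magel2, also of 1 exon, follows at chr7:62377010-62381640 on the same strand. Snrpn spans chr7:59982495-60140219 on the minus strand. Peg3 lies far from these, at chr7:6703892-6730431 on the minus strand, as does Cdkn1c, at chr7:143458339-143461050 on the minus strand. On the plus strand of chromosome 12 the order is Dlk1 (chr12:109452823-109463336), Meg3 (chr12:109541001-109571726), Rian (chr12:109603940-109661716) and Mirg (chr12:109729764-109749460). Nnat lies at chr2:157560078-157562522 on the plus strand, within the span of Blcap. RefSeq hairpins of microRNAs on the same strand lay inside Mirg (14), Rian (3) and Meg3 (1).

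Promoters of 300 bases, from 250 before to 50 after each RefSeq start (build GRCm38.p6), were at hand for 9 of the 10 genes, at 13 starts. They were searched on both strands for the palindromes CGCATGCG, which the factor NRF1 can bind, and TGACGTCA, the cAMP response element. Both motifs were chosen after the sequences and levels had been seen. CGCATGCG was in the promoters of 3 genes, Ndn, Nnat and Snrpn (at each of its 4 starts), and in 1.87% of all 32851 promoters of this length. TGACGTCA was in those of Peg3 and of Meg3 at the first of its 2 starts, and in 1.79% of all promoters. Magel2, Rian, Mirg and Dlk1 held neither in this window. The promoters with a match (for Snrpn, the most downstream start) and that of Magel2, the neighbour of Ndn, are printed to set the 3 genes of highest level beside Peg3, Meg3 and Magel2, with matches in capitals, 5′ to 3′ on the gene's strand. A match describes letters, not a bound site.
Ndn (chr7:62348027-62348326, plus): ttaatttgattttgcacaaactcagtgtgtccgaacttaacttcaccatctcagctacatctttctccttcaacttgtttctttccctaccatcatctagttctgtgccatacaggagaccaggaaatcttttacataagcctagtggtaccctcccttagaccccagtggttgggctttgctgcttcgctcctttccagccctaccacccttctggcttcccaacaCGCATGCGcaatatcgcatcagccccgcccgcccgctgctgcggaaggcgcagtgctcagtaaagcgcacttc
Magel2 (chr7:62376729-62377028, plus): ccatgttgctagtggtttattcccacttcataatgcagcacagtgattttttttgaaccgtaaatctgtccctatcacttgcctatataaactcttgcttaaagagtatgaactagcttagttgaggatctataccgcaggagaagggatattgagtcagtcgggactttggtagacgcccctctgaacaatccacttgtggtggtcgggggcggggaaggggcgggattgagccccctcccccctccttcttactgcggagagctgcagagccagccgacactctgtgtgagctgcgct
Snrpn (chr7:60005150-60005449, minus): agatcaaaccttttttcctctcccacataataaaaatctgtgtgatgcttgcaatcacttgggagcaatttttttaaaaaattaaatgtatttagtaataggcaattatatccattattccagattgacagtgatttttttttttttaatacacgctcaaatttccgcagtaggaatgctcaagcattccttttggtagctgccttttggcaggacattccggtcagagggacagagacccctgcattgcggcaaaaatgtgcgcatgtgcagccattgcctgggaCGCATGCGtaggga
Nnat (chr2:157559828-157560127, plus): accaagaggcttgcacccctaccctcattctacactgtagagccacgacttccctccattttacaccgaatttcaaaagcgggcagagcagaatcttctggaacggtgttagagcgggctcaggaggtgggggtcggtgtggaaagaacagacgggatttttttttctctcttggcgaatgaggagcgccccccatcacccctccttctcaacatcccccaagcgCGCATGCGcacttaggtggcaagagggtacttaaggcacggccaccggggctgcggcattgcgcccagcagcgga
Peg3 (chr7:6730370-6730669, minus): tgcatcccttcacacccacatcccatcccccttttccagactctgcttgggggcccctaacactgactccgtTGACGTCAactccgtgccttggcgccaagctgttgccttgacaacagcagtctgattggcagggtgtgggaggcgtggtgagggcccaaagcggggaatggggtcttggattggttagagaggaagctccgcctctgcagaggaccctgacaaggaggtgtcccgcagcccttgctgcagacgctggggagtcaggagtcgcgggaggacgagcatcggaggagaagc
Meg3 (chr12:109540746-109541045, plus): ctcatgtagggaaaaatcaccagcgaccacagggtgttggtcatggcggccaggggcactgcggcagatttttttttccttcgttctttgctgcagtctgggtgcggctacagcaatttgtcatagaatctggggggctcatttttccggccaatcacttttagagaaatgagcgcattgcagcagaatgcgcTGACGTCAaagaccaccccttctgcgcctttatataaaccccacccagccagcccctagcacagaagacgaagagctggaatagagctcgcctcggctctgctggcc

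Imprinted transcripts were a visible part of these libraries, and Snrpn, Nnat and Ndn were the highest of them. The mean log2(FPKM + 1) over 10 neurons was 8.64 ± 1.36 (SD) for Snrpn, 7.81 ± 0.99 for Nnat and 7.10 ± 2.47 for Ndn. Meg3 at 5.49 ± 2.64 and Peg3 at 4.39 ± 2.99 followed. Rian (2.57 ± 1.45), Cdkn1c (2.44 ± 2.07) and Magel2 (2.30 ± 1.96) formed a lower group, Mirg was at 0.82 ± 1.38, and Dlk1 had 0 fragments in every neuron. No neighbours in this order differed by more than the SD of their difference over neurons. Of the 100 gene-by-neuron values, 69 were at 1 FPKM or more. Of the 16546 genes that reached 1 FPKM in any neuron, 5055 (sample 3) to 9307 (sample 8) were at this limit in a single neuron. Snrpn and Nnat, 2 of the 10 genes, were at 1 FPKM or more in all 10 neurons, as were 7.80% of the 16546 genes that reached 1 FPKM in any neuron. Ndn and Meg3 joined them when sample 4 was set aside, making 4 of 10, beside 9.10% of the 16546 genes.

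**Figure D1:**
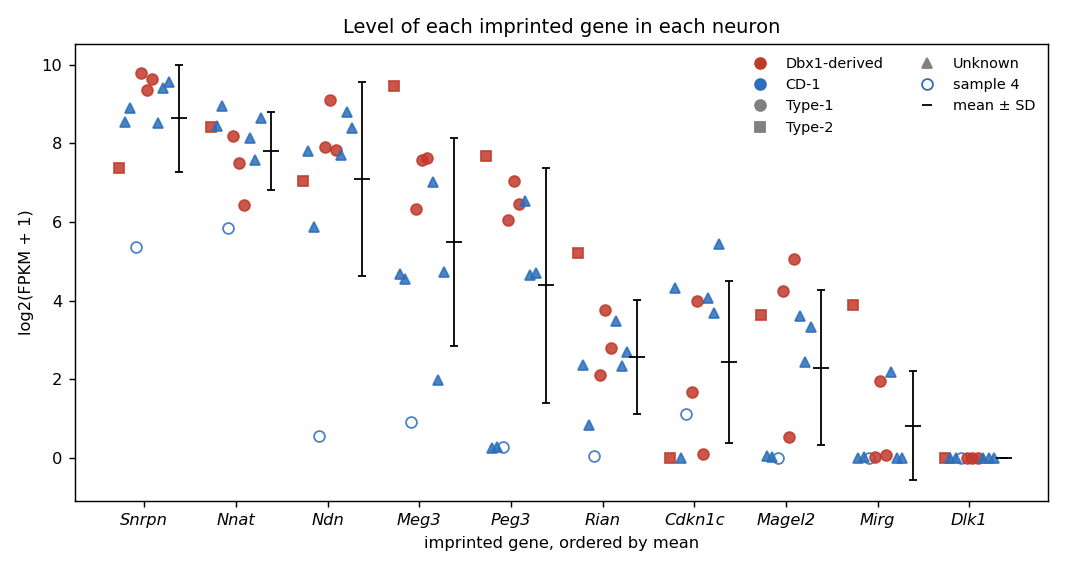
Level of each imprinted gene (log2(FPKM + 1), vertical axis) in each of 10 neurons, genes ordered by mean. Points are neurons, coloured by line and shaped by type, sample 4 is open, and black bars give mean ± SD; Snrpn and Nnat were above 1 FPKM in all 10 neurons, and Dlk1 was at 0 in all.

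Together the 10 genes took 0.617% ± 0.498 (SD, n = 10) of the assigned fragments. The share was largest in the Type-2 neuron, sample 1, at 1.82% (95% Wilson interval 1.81 to 1.82, counting error only). It lay between 0.257% and 0.944% in 8 neurons and was 0.0214% in sample 4. Meg3 made up 69.5% of these fragments in sample 1 and 1.35% in sample 9. With Meg3 left out the share was 0.369% ± 0.17 (SD) and ranged from 0.0198% to 0.602%.

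Ndn encodes necdin, a MAGE family protein of postmitotic neurons that restrains cell cycle and apoptosis factors. Its FPKM in samples 1 to 10 were 131, 223, 57.4, 0.469, 240, 552, 226, 208, 440 and 336. Sample 6 was highest and sample 3 lowest among 9 neurons that spanned 9.62-fold, and only sample 4 was under 1 FPKM. In those 9 neurons the level was 7.83 ± 0.96 on the log2 scale, and Ndn stood above at least 87.8% of the genes detected in each. In sample 4 Ndn had 51 fragments (95% exact Poisson interval 38 to 67.1), and 49.3 would come from fragments of the other 9 libraries at the rates found for genes nearly confined to 1 library. By age, the day 0 neurons had Ndn at 131, 57.4, 240 and 208 FPKM, and the day 2 and day 3 neurons other than sample 4 at 223, 440, 552 and 226, which overlap. The deposited length of Ndn, 3694 bases, is longer than the RefSeq gene of 1652 bases. With the latter each FPKM of Ndn would be 2.24 times as high and its mean 8.19, above that of Nnat.

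Magel2 encodes a MAGE protein that works with the ubiquitin ligase TRIM27 in sorting cargo from endosomes. Its FPKM in samples 1 to 10 were 11.5, 0.0357, 0.0208, 0, 18, 0.453, 32.4, 11.3, 4.45 and 9.07. It thus reached 4.45 FPKM or more in 6 neurons and was under 1 FPKM in samples 2, 3, 4 and 6. Sample 6, with the highest Ndn, had 66 fragments of Magel2, over 3 times the 1.24 expected from other libraries, whereas the 6 and 3 fragments in samples 2 and 3 were within 3 times the 2.72 and 2.01 expected. A library from 1 neuron can miss a transcript that the cell held, and how often it did was not tested. The numbers of genes at 1 FPKM or more were 5623 and 5055 in samples 2 and 3, 5065 in sample 1, with Magel2 at 11.5 FPKM, and 8817 in sample 6. Mkrn3, a ring finger gene of the same region, was at 17.9, 12.2, 38.8 and 29.4 FPKM in samples 1, 5, 7 and 8, all with Magel2 at 11.3 FPKM or more, and at most 0.0756 in the other 6.

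Snrpn encodes SmN, a core protein of splicing particles that takes the place of SmB in neurons. Samples 1 to 10 had Snrpn at 165, 370, 476, 40, 876, 654, 789, 368, 682 and 761 FPKM. Samples 1 and 4 were lowest, and without sample 4 the range was 5.31-fold. Snrpb, the gene of SmB, had 79, 103, 180, 242, 63.8, 20.4, 60.8, 94.4, 30.6 and 86 FPKM in the same order. Per length, Snrpn was above Snrpb in the 9 neurons other than sample 4, by 2.09-fold in sample 1 up to 32.1-fold in sample 6, while in sample 4 the ratio was 0.165. Snrpn shares 589 exon bases with Gm38393 and 216 with Snurf on its own strand, and 18.72% of the stretches of 100 bases in its longest transcript recur in other genes, so its count is uncertain to the extent that such fragments were dropped or split. Snurf had 0 fragments in all 10 neurons. Fragments in the bases it shares with Snrpn may have been dropped, so this count does not show that Snurf was silent.

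Within the same region, Snhg14, the long noncoding host of small nucleolar RNAs, was at 1 FPKM or more in 7 neurons, highest in samples 6 and 7 at 14.2 and 13.5 FPKM. Ube3a, a ubiquitin ligase gene imprinted in mature neurons, was at 1 FPKM or more in 8, at up to 14.1 FPKM. Of the 8 genes listed for the region, 4 reached 1 FPKM in at least 7 neurons, namely Ndn, Snrpn, Snhg14 and Ube3a. The share of all genes that did so was not computed, so such counts, here and for the lists below, only describe the lists. Peg12 stayed at or under 0.0869 FPKM.

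**Figure D2:**
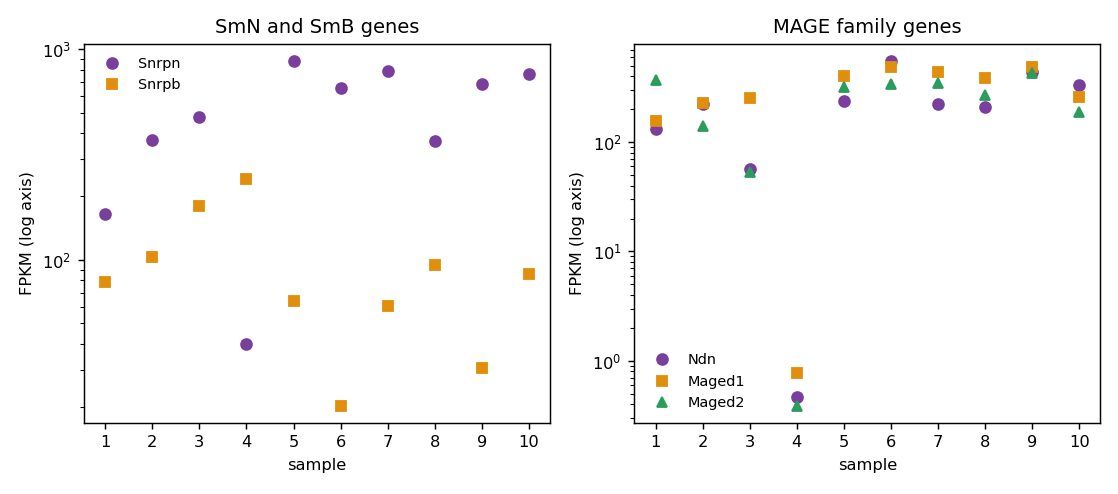
FPKM on a log axis by sample for Snrpn and Snrpb (left) and for the MAGE family genes Ndn, Maged1 and Maged2 (right); each point is 1 neuron. Snrpn was above Snrpb in every neuron but sample 4, where Ndn, Maged1 and Maged2 were each under 1 FPKM.

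Among 8 MAGE genes listed, 5, Ndn included, reached 1 FPKM in 7 or more neurons. Maged1, a relative of necdin, was at 155 to 488 FPKM and Maged2 at 52.9 to 427 FPKM in the 9 neurons other than sample 4. In sample 4 they were at 0.773 and 0.388 FPKM, as low as Ndn. Mageh1 and Magee1 were the other two, with means of 16 and 81.9 FPKM. Of 10 genes on a list of partners of Ndn and Magel2, 4 reached 1 FPKM in 7 or more neurons. These were Trim27, Usp7, Vps35 and Snrpb. Snrpb is on that list as the gene of SmB, to set beside Snrpn, and is not a partner of Ndn or Magel2. Trim27 (2.1 to 60.8 FPKM) and Vps35 (7.11 to 60.6 FPKM) were at this limit in all 10 neurons, sample 4 included. Vps35 encodes a subunit of the retromer that recycles endosomal cargo.

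Peg3 encodes a large zinc finger transcription factor. Its FPKM in samples 1 to 10 were 203, 0.194, 0.207, 0.222, 65.7, 131, 86.1, 91.4, 24.3 and 25.2. The neurons fell on either side of a wide gap, with 7 at 24.3 FPKM or more and samples 2, 3 and 4 at 0.222 or less. Fragments in these 3, 96, 88 and 89, were above the 60.5, 52.5 and 32.6 expected from the other libraries but within 3 times those values. Samples 2 and 4 also had the highest microglial means, 7.14 and 9.89, and samples 2 and 3 the highest oligodendrocyte lineage means, 3.15 and 3.48, and the part of these was not tested. The neuronal markers were at a mean of 6.39 in sample 2, 6.38 in sample 3 and 2.10 in sample 4. Usp29, the neighbour that shares the Peg3 control region, was at 0.0137 and 0.0113 FPKM in samples 2 and 4. The ratio of Peg3 to Usp29 was 7.15 to 19.8 in 8 neurons, and it was 260 in sample 1 (Usp29 at 0.781 FPKM) and 0.0315 in sample 3 (Usp29 at 6.6 FPKM). The 8 include samples 2 and 4, with 9 and 6 fragments of Usp29, whose ratios may be those of fragments from other libraries.

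Meg3 is a long noncoding RNA kept largely in the nucleus. Relative to its mean FPKM it varied more between neurons (SD over mean 1.54) than every other detected member except Mirg (2.14). Its FPKM in samples 1 to 10 were 697, 24.6, 22.4, 0.89, 79.8, 189, 197, 128, 2.99 and 25.6. Sample 1, the Type-2 neuron, held 51% of the summed FPKM and was followed by samples 7, 6, 8 and 5. Sample 9, with motoneuron genes, was lowest after sample 4, where the 474 fragments were over 3 times the 76.9 expected from other libraries. An antisense model, Gm26906, covers 6.79% of its exon bases.

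Rian, host of box C/D small nucleolar RNAs, was at 36.4, 4.12, 0.792, 0.0446, 3.35, 12.5, 5.92, 10.3, 4.08 and 5.43 FPKM in samples 1 to 10. Mirg, host of a microRNA cluster, was at 13.8, 0, 0.0132, 0, 0.0112, 2.89, 0.0587, 3.56, 0.00621 and 0.00449 FPKM. Mirg was at 1 FPKM or more in samples 1, 6 and 8 alone, and these were also the 3 neurons with the highest Rian. Sample 7, with the second highest Meg3, had 11 fragments of Mirg. A pair of unnamed gene models between Rian and Mirg on the same strand were then looked at, since 1 of them, Gm37899 (chr12:109668869-109677585), was among the 3 genes most like Mirg over neurons (Pearson 0.98), and the other was chosen after its values were seen. Gm37899 was at 89.3, 14.1 and 15.4 FPKM in samples 1, 6 and 8 and at most 1.74 in the others. B830012L14Rik (chr12:109695586-109702587) was at 27.5, 10.7 and 10.2 in these 3 and at most 3.78 in the others. Samples 1, 6 and 8 thus had the highest levels at each of Rian, Gm37899, B830012L14Rik and Mirg, whereas sample 7 exceeded samples 6 and 8 at Meg3. Of the remaining genes of the region, Rtl1, which lies antisense to this unit, reached 5.36 FPKM in sample 6, Begain was at up to 18.8 FPKM with a mean of 6.55, above the mean of Mirg (2.03), and Dio3 had 0 fragments.

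**Figure D3:**
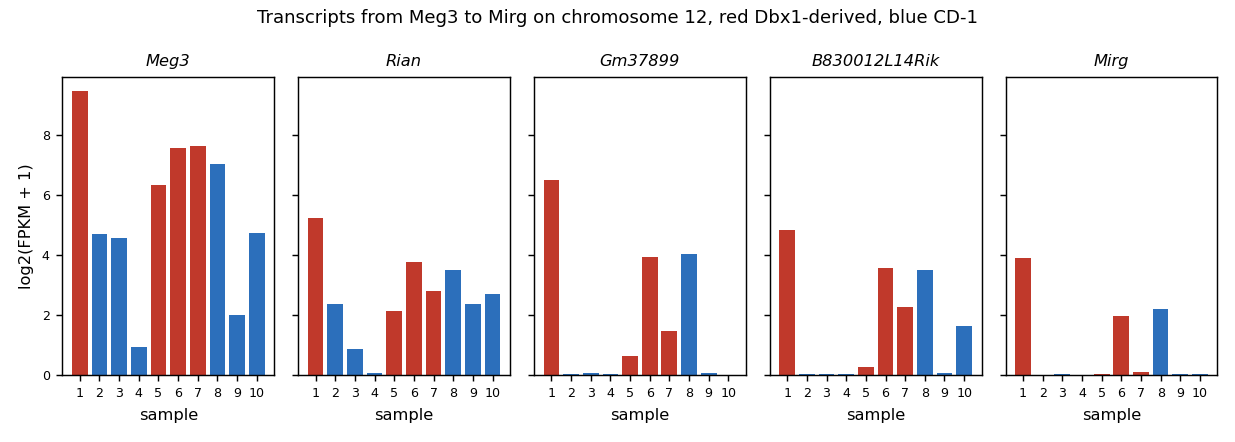
log2(FPKM + 1) of 5 plus-strand gene models in genomic order from Meg3 to Mirg; each bar is 1 neuron, coloured by line, on a shared axis from 0. Samples 1, 6 and 8 stand highest from Rian onwards, and Mirg was at 1 FPKM or more in these 3 only.

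Dlk1, the paternally expressed ligand-like membrane protein of the region, had no fragment in any of 10 libraries. Taking 3 fragments as the limit that a count of 0 allows (3.69 by the upper end of the exact Poisson interval used for Ndn), the bound was 0.0819 to 0.14 per 1000000 fragments. Dlk1 was therefore not detectable at this depth, in neurons where Meg3 from the same region reached 697 FPKM.

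Cdkn1c encodes an inhibitor of cyclin-dependent kinases. In samples 1 to 10 its FPKM were 0, 19, 0, 1.17, 2.21, 14.8, 0.0764, 15.7, 11.8 and 42.1. Sample 10 was highest and samples 1, 3 and 7 were under 1 FPKM, with at most 4 fragments. Sample 4 thus lay above these 3 neurons for Cdkn1c. An antisense model covers 30.65% of its exon bases, from which fragments cannot be told apart without strand, and 1 fragment was assigned to that model over all libraries. Of the 9 genes listed for the Cdkn1c and Igf2 regions, 6 had 0 fragments throughout, Igf2 among them, and H19 reached 25.6 FPKM in sample 9 and at most 0.0158 elsewhere. Kcnq1ot1, the antisense RNA of the Cdkn1c domain, was at 5.66 FPKM or less.

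Nnat encodes neuronatin, a small membrane protein of the endoplasmic reticulum. FPKM of Nnat in samples 1 to 10 were 338, 344, 489, 56.3, 290, 179, 85.7, 280, 192 and 397. Sample 3 was highest and sample 7 lowest of the 9 neurons other than sample 4, a range of 5.7-fold. Blcap, the gene around it, was at 27.7, 24.7, 40.8, 0.413, 146, 159, 134, 109, 50.6 and 219 FPKM. The ratio of Nnat to Blcap was 12 to 13.9 in samples 1, 2 and 3, 136 in sample 4 and 0.64 to 3.8 in samples 5 to 10. Samples 1 to 4 are the set of lowest cDNA concentration named above, so the ratio split along that set. They were also among the 5 libraries with the fewest genes at 1 FPKM or more. The part of either was not tested.

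Sample 4 had the lowest level of 6 of the 10 genes, Ndn, Magel2, Snrpn, Meg3, Rian and Nnat, as it did for 8.13% of the 16546 genes. Relative to the median of the other 9 neurons, it had 0.208% of Ndn, 0.338% of Peg3, 0.821% of Rian and 1.12% of Meg3, 6.12% of Snrpn, 9.87% of Cdkn1c and 19.4% of Nnat, and no fragment of Magel2 or Mirg. Neuronal markers there were at 0.139% (Tubb3) to 16.1% (Syt1) of that median.

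**Figure D4:**
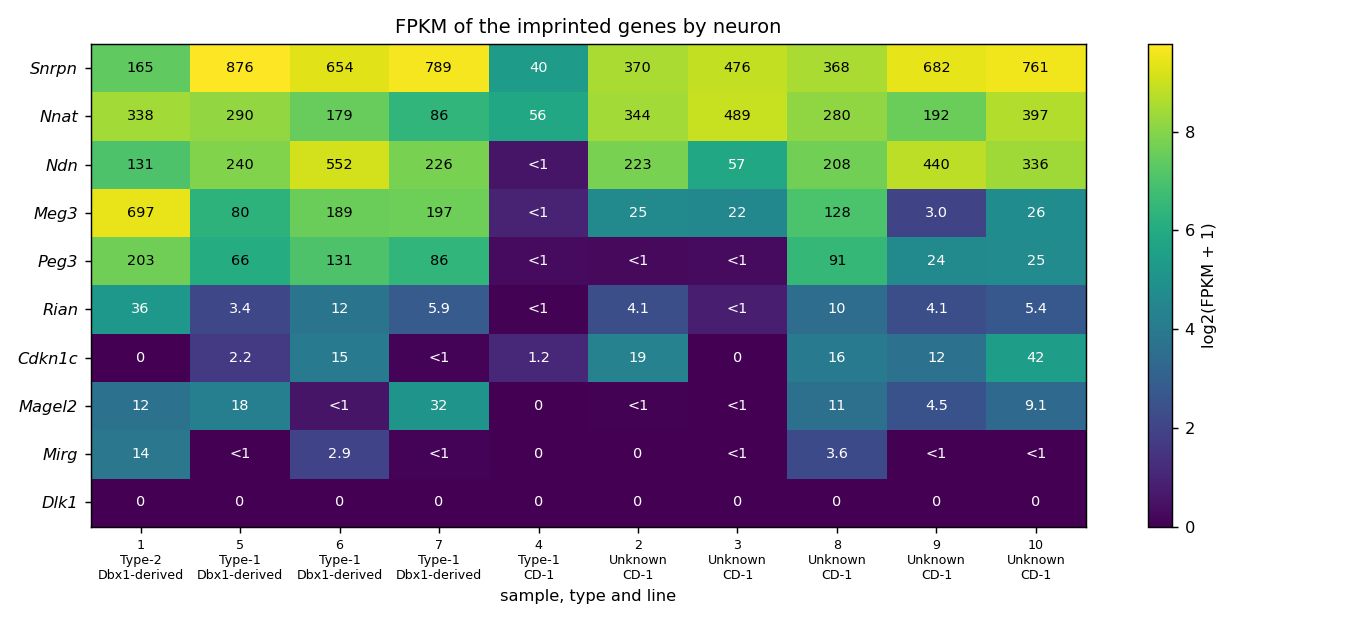
FPKM of the imprinted genes (rows) in each neuron (columns, ordered by line and type); colour gives log2(FPKM + 1), numbers give FPKM, and <1 marks values above 0 and under 1. Snrpn and Nnat are high across neurons, and Peg3 is under 1 FPKM in samples 2, 3 and 4.

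The 4 Dbx1-derived neurons were set against the 6 CD-1 neurons. These groups differ in lineage mark, strain background and transgenes together, so that lineage cannot be told apart from strain or transgene. Dbx1-derived cells may also be among the CD-1 neurons. Peg3 was at 65.7 to 203 FPKM in the Dbx1-derived and 0.194 to 91.4 in the CD-1 neurons. The difference was 4.02 in mean log2(FPKM + 1), or 3.52 without sample 4. Meg3 was at 79.8 to 697 FPKM against 0.89 to 128, a difference of 3.77, or 3.15 without sample 4. The 3 CD-1 neurons with Peg3 at 0.222 FPKM or less, samples 2, 3 and 4, were among the 5 libraries with the fewest genes at 1 FPKM or more, as was Dbx1-derived sample 1. These 4 neurons are also the set of lowest cDNA concentration, which thus held 3 of 6 CD-1 and 1 of 4 Dbx1-derived neurons. The part of gene detection and of cDNA concentration in the line differences was not tested. For both genes the ranges overlapped through 1 neuron, sample 8, in which Peg3 was at 91.4 and Meg3 at 128 FPKM. Differences were 1.79 for Magel2, 1.51 for Rian, 1.45 for Ndn, 1.12 for Mirg and 0.65 for Snrpn, beside a median of 0.13 over all 16546 genes. The larger of the group SDs was 1.98 for Magel2, 1.35 for Rian, 3.09 for Ndn, 1.84 for Mirg and 1.55 for Snrpn. Of these genes only Rian had a difference above that SD. Without sample 4 the difference of Ndn was 0.26 and that of Snrpn 0.04, also within the SD between neurons. Without sample 1, the Type-2 neuron, that of Mirg was 0.32, that of Rian 0.93 and that of Snrpn 1.20. That of Magel2 was 2.74 without sample 6 and 1.23 without sample 7. Over every neuron left out in turn, the difference of Peg3 was 3.51 to 4.77 and that of Meg3 3.15 to 4.37. Cdkn1c was lower in Dbx1-derived neurons by a difference of -1.66 and Nnat by -0.30, within the larger group SDs of 2.08 and 1.12. That of Cdkn1c was -2.51 without sample 6 and -1.18 without sample 1, its extremes over every neuron left out. The sign of Nnat turned to 0.10 without sample 7 and to 0.23 in TPM (transcripts per 1000000, with length divided out before scaling), a scale on which the median over all genes also moved to 0.45. For 0 of the 10 genes did the line groups not overlap, with or without sample 4, beside 1.83% and 2.23% of all genes.

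The Type-1 neurons were likewise set against the Unknown neurons. Since 3 of 4 Type-1 neurons were Dbx1-derived and every Unknown neuron was CD-1, type and line cannot be told apart. Peg3 was at 0.222 to 131 FPKM in Type-1 and 0.194 to 91.4 in Unknown neurons, a difference of 1.67 that was 3.23 without sample 4, and Meg3 differed by 1.02 and by 2.59 without it. Snrpn was at 40 to 876 FPKM in Type-1 and 368 to 761 in Unknown neurons, and its difference turned from -0.46 to 0.60 without sample 4, as did those of Ndn (-1.36 to 0.57) and Rian (-0.16 to 0.55). Over every neuron left out, the difference of Peg3 was lowest without sample 2 or 3, at 0.92, and that of Meg3 without sample 7, at 0.35. The signs of smaller differences also turned on 1 neuron, since that of Magel2, 0.56, was -0.30 without sample 7 and -0.03 without sample 5, that of Mirg, 0.07, was -0.41 without sample 6 and -0.04 without sample 2, 3, 9 or 10, and that of Rian was 0.13 without sample 8. Nnat differed by -1.36 and by -0.97 without sample 4, and Cdkn1c by -1.78 and by -1.58. The median over all genes was 0.17, and 0.22 without sample 4. Again 0 of 10 genes had groups that did not overlap, with or without sample 4, beside 0.973% and 4.18% of all genes. The Type-2 neuron had the highest Meg3, Rian, Mirg and Peg3 of all 10 neurons and the lowest Snrpn outside sample 4. It also had the highest mean of 4 GABAergic or glycinergic markers (4.72), followed by sample 10 (3.85) and sample 3 (2.47). In the Type-2 neuron Slc6a5 was at 146, Gad1 at 71.8 and Gad2 at 43.5 FPKM, but Slc32a1 was at 0.0167 FPKM. Sample 10 had Gad1 at 92, Gad2 at 34.2, Slc6a5 at 8.6 and Slc32a1 at 0.375 FPKM. The glutamatergic gene Slc17a6 was at 0.26 FPKM in the Type-2 neuron and at 101 to 230 in samples 5 to 8. The comparisons of lines and of types share all 4 Type-1 and all 5 Unknown neurons.

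Of 23 other imprinted genes found in the tables, 7 reached 1 FPKM in 7 or more neurons. Nap1l5, a nucleosome assembly gene, was the highest, at 36.4 FPKM in sample 4 and 226 to 1568 in the others. Asb4, which encodes a substrate receptor of a ubiquitin ligase, was at 136, 1440 and 432 FPKM in samples 5, 6 and 7, the Type-1 Dbx1-derived neurons, at 7.61 in sample 1 and at most 2.15 in the 6 CD-1 neurons. It was the only 1 of 21 genes of this list that reached 1 FPKM whose line groups did not overlap, with or without sample 4, beside 1.83% and 2.23% of all genes. Type groups overlapped for all 21 with sample 4 in, where 0.973% of all genes did not overlap. Without sample 4 they did not overlap for 3 of 21, Asb4, Nap1l5 and Zdbf2, each higher in Type-1, beside 4.18% of all genes.

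Across neurons, genes that are neighbours on chromosome 12 had similar orders, though not they alone. Pearson correlations of log2(FPKM + 1) over 10 neurons were 0.82 for Meg3 with Rian, 0.82 for Rian with Mirg and 0.70 for Meg3 with Mirg, and 0.72, 0.89 and 0.74 over the 9 without sample 4. Peg3, from another chromosome, correlated with Meg3 at 0.74 (0.64 without sample 4) and with Rian at 0.81 (0.75). Among the 4868 genes defined below, Meg3 had rank 63 and Peg3 rank 76 by correlation with Rian. Without sample 4 these ranks were 288 and 230. For Mirg, Meg3 had rank 147, and 126 without sample 4. Ndn and Snrpn correlated at 0.88, which was 0.47 without sample 4. Ndn and its neighbour Magel2 correlated at 0.43, and at 0.13 without it. Ndn and Nnat went from 0.52 to -0.49. These points share the 10 libraries and whatever depth and capture each had, and they are given as description.

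**Figure D5:**
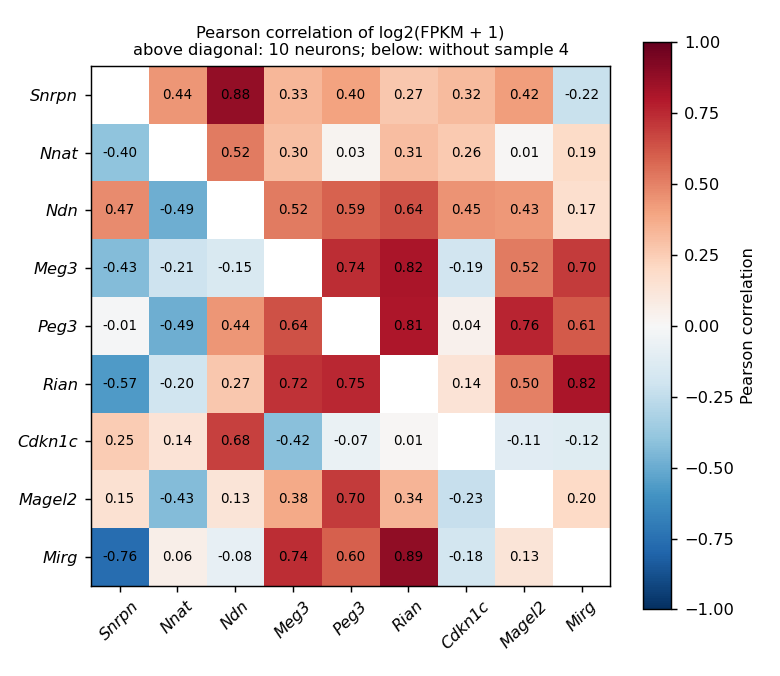
Pearson correlation of log2(FPKM + 1) between pairs of the 9 detected imprinted genes, over 10 neurons above the diagonal and over the 9 without sample 4 below it. Ndn with Snrpn is 0.88 above and 0.47 below, and Rian with Mirg is 0.82 above and 0.89 below.

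The genes whose pattern over 10 neurons was most like that of Ndn, among 4868 genes that averaged 10 FPKM and reached 1 FPKM in no fewer than 3 neurons, were Oaz2, Slc25a46, Snap47, Ndfip2 and Rab3a, with Pearson correlations of 0.96 to 0.98. Without sample 4 these were 0.68 to 0.85, and the 5 genes then ranked 33 to 465, so the likeness rested largely on 1 library. The genes most like Meg3 were Gm27000 (0.99, and 0.98 without sample 4), a noncoding RNA on the X chromosome, and Snhg11 (0.96 and 0.95), followed by Armcx5, Ip6k2 and Maf1. With sample 4 left out, Gm27000 and Snhg11 ranked 1 and 3, whereas Armcx5, Ip6k2 and Maf1 fell to 10, 41 and 51. Lingo2, Fam131a and Gria4, which encodes an AMPA receptor subunit, were most like Peg3, each at 0.98, and at 0.97 or 0.98 without sample 4.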

How the data were processed

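RNA aspirated from single neurons was amplified with a template-switching kit, made into libraries by tagmentation, which keeps no strand, and sequenced as paired reads. The authors aligned reads with STAR 2.7.7a to GRCm38 (mm10) and counted fragments per gene with featureCounts. Its options for fragments matching several places or genes were not given in the sources used here. They deposited raw fragment counts per gene and FPKM. The deposited FPKM equal counts per kilobase of the deposited gene length and per 1000000 fragments on genes (largest relative gap 3.33e-13).

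Groups follow the labels. Levels were summarised as log2(FPKM + 1), with a limit of 1 FPKM, in Python 3.11.15, and TMM factors came from edgeR 4.0.16. No test between groups was run, and single neurons were compared with their group by the criterion of Dixon. Counts expected from other libraries were estimated from genes nearly private to a library (1000 counts or more there, no other library above 2% of that value) after trimming the top 5% of ratios, and these rates were 0 to 0.157%. Only 3 steps were tried on simulated or planted data: the rates between libraries, the overlap of groups and the ranking by likeness. For the overlap of groups the planted change was large, and no spread between neurons beyond counting error was simulated. For the likeness a near-copy of the Ndn pattern was planted. Such trials check the code and not the power in these data. Positions are from GENCODE M21 and promoters from RefSeq. Alternatives were other scalings (TPM, TMM, median of ratios), a pseudocount of 0.1, filters on low counts, thinning to the smallest total, taking off expected counts, and leaving out each neuron.

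All 10 genes were described. Of the region lists any detected gene could be named. Of other imprinted, MAGE and partner genes, those that reached 1 FPKM in 7 or more neurons and the 3 with the highest mean were eligible, and of genes of similar pattern the 5 or 3 most correlated. The members and lists were chosen with earlier results of these data known.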

Additional observations from a re-analysis of the deposited data

Results flagged for a closer look

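In 36 groups examined (each detected gene within the Type-1, Unknown, Dbx1-derived and CD-1 neurons), the gap between 1 neuron and its nearest neighbour passed the 95% criterion of Dixon 8 times on the log2(FPKM + 1) scale, and chance alone gives about 1 in 20 for a single group. The groups share neurons and are not independent, and the 8 passes come from 5 different gene and neuron pairs. The criterion assumes normally distributed values, so the rate of 1 in 20 does not hold for a gene near 0 in all but 1 neuron of a group, as Mirg was. Of the 8, 5 concerned sample 4. Ndn at 0.469 FPKM lay below all other Type-1 neurons (226 to 552) and all other CD-1 neurons (57.4 to 440). Snrpn at 40 FPKM lay below the other Type-1 neurons (654 to 876) and the other CD-1 neurons (368 to 761). Peg3 at 0.222 FPKM lay below the other Type-1 neurons (65.7 to 131). The other 3 concerned Mirg, which was at 2.89 FPKM in sample 6 against at most 0.0587 in the other Type-1 neurons, and at 3.56 FPKM in sample 8 against at most 0.0132 in the other Unknown and the other CD-1 neurons.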

How the results depend on the processing

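Levels, numbers of neurons at 1 FPKM or more, group differences, shares and correlations were recomputed under 768 alternatives in all. In 760 the value moved by less than the SD between neurons, or a count by at most 1.5 times, or a correlation kept its sign when a neuron was left out. None of the 330 alternatives for group differences moved further than that. For these the SD was pooled within the groups with sample 4 in, and it was 3.91 for Ndn in Type-1 neurons. The criterion therefore passes large shifts. The difference of Ndn between Type-1 and Unknown neurons, -1.36, turned to 0.57 without sample 4. Signs also turned when 1 neuron was left out for Snrpn, Rian, Magel2, Mirg and Nnat, as given above. With a pseudocount of 0.1 the mean level of Mirg was -1.49 and that of Dlk1, at 0 throughout, -3.32, which follows from the logarithm of values near 0. In TPM the mean level of Nnat was 9.05. The levels of Snrpn (9.88), Ndn (8.31) and Meg3 (6.67) were likewise higher on that scale, and Nnat passed its SD because that SD, 0.99, is small. The other 5 were numbers of neurons at another limit (3 at 10 FPKM for Rian, and for Mirg 8 with any fragment and 1 at 10 FPKM) and Spearman correlations of Meg3 with Peg3 (0.85) and with Mirg (0.80). The gene lengths from RefSeq for Ndn and from GENCODE for Rian were tried after seeing the data and gave means of 8.19 and 3.19. No paired analysis was possible because the replicate numbers are those of single neurons and no number occurs in more than 1 group. With 1 neuron per library and no animal named, the data describe these 10 neurons, and values under 1 FPKM cannot tell a silent gene from a missed transcript.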
